A study of Mus musculus with 3 samples.

Results

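The locus studied here was *G6pc2* and the genes on either side of it on mouse chromosome 2, *Spc25* and *Abcb11*. These 3 genes, of 17226 listed in the count tables of the series, were chosen from values of the same data, namely their summed unique molecular identifiers (UMIs) in islet cell classes and the detection of *Spc25* with *G6pc2* in the same cells. Their levels by library and class are therefore a description. The series measured isolated islets of Langerhans of C57/Bl6 mice by single-cell RNA-seq, with 1 library from wild type (WT) islets and 1 each from *Taf4* mutant islets taken 1 week and 5 weeks after *Taf4* was inactivated. Taf4 is a subunit of TFIID, the general transcription factor that assembles at promoters. Per the study's methods the mutants were *Ins1*::Cre-ERT2::*Taf4* lox/lox animals injected as adults with tamoxifen on consecutive days, so that Cre from the *Ins1* driver, a gene of beta cells, deleted *Taf4* there and was not aimed at alpha or delta cells. The label of the control library gives only wild type, while the study's controls elsewhere were *Ins1*::Cre-ERT2::*Taf4* +/+ animals given tamoxifen, and whether this animal was one of them is not given. For WT, 300 islets came from 1 animal. For each mutant time point 2 animals were pooled to give 300 islets. All were labelled male, and the islets were cultured for a day before dissociation and sorting of live cells. In the WT library only, the study removed cells with more than 1 hormone and called doublets, and reduced it to 12000 cells.

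Cells were classed by the share of their UMIs that came from a hormone gene. Beta cells had at least 20% *Ins2* and under 3% *Gcg*, alpha cells at least 15% *Gcg* and delta cells at least 5% *Sst*. For the 1-week library the limits were 5%, 8% and 1.5%, in cells of at least 5000 UMIs. This gave 8271 beta, 2815 alpha and 621 delta cells in WT, 562, 175 and 38 at 1 week, and 5685, 3322 and 1443 at 5 weeks. Of the 2295 barcodes at 1 week 1415 fell under 5000 UMIs, while the other libraries had no depth limit. In no class were 1521 barcodes at 1 week, 295 of 12000 in WT and 981 of 11229 at 5 weeks. With the limits of the other libraries 1140 cells at 1 week would be beta cells. With *Ins2*, *Gcg* and *Sst* left out, 7 or 8 of 10 beta markers, 7 or 8 of 9 alpha markers and 6 of 6 delta markers were highest in their own class in each library. The 10 beta markers include *Ins1*, itself an insulin gene. The median beta cell of WT held 1656 UMIs, that at 1 week 24754.5 and that at 5 weeks 3868. Cells that met the limits of more than 1 class, 2 in WT, 1 at 1 week and 202 at 5 weeks, were counted in each. Pairs of libraries shared 2, 5 and 33 cell barcodes. The library labelled WT and male held 17357 UMIs of *Xist*, the RNA of the inactive X chromosome, and 0 of 4 Y-linked genes, against 11 to 17 *Xist* UMIs and 3476 to 4267 UMIs of the Y-linked genes in the mutant libraries, so that each comparison with WT also sets a library without Y transcripts against libraries with them. *Taf4* itself was counted 102, 196 and 160 times, and its tag lies at the transcript's end, which does not check the deletion. Genotype, animal, sex and library cannot be told apart, and no test between libraries was possible.

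*G6pc2* encodes the islet form of the catalytic subunit of glucose-6-phosphatase, which takes the phosphate off glucose-6-phosphate and so works against the use of glucose in beta cells. *Spc25* encodes a subunit of the NDC80 complex, which ties kinetochores to spindle microtubules in dividing cells and works there together with Ndc80, Nuf2 and Spc24. *Abcb11* encodes the bile salt export pump of hepatocytes. Adult beta cells rarely divide.

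In RefSeq GRCm38.p6 (mm10, the build of the files) *Spc25* spans chr2:69193895-69206213 on the minus strand and *G6pc2* spans chr2:69211073-69227993 on the plus strand, so that both genes start back to back with 4859 bases between the *Spc25* start and the first *G6pc2* start. *Abcb11* follows at chr2:69238282-69342616 on the minus strand, with its end 10288 bases beyond the end of *G6pc2*. No pair of these genes overlaps. The promoter bases of *Spc25* and *G6pc2* are shown because Taf4 acts at promoters. For *Spc25* the 280 bases run to 30 bases into the transcript, with the CCAAT boxes (CCAAT, at -55 and -23 from the start) and the letters TTTGAA of the cell cycle homology region (at 25 bases into the transcript) in capitals. For *G6pc2* the 250 bases before each of its annotated starts are shown, 69211073 and 69219949, with E boxes (CANNTG) and the MAF recognition core (TGCTGA, here read on the other strand) in capitals.
Spc25 promoter: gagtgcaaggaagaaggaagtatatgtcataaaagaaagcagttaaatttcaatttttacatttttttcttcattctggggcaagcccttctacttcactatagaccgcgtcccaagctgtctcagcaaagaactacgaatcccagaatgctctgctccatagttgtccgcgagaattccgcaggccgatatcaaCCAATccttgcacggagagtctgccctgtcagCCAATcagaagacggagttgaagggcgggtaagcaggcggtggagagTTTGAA
G6pc2 promoter, first start: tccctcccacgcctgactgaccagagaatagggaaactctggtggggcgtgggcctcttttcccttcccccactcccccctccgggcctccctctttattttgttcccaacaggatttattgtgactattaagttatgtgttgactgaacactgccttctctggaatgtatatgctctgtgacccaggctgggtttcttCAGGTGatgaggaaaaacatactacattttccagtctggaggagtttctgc
G6pc2 promoter, second start: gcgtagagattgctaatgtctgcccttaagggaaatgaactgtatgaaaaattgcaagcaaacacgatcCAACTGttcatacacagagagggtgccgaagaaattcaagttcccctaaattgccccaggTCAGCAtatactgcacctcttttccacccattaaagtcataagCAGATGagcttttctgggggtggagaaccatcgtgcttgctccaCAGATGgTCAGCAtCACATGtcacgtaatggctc
Both strands were searched in RefSeq promoters of 32851 starts, and the letters in capitals do not overlap. The *Spc25* window held 2 CCAAT boxes and 1 TTTGAA, a combination found in 1.88% of all promoters of that length, and a MAF core at -128 that is not in capitals. The second *G6pc2* window held 4 E boxes and 2 MAF cores. Of all promoters 3.84% held 4 or more E boxes and 1.66% held 2 or more MAF cores. The first window held 1 E box, as did 66.2% of promoters at least once, and no MAF core. None of the 3 windows, nor that of *Abcb11*, held TATAAA. These matches describe letters only, and tags from transcript ends do not show which *G6pc2* start was used.

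In WT beta cells *G6pc2* was counted 6593 times, 411 CPM, which is UMIs scaled to a class total of 1000000 (exact Poisson 95% interval 401 to 421). It was counted 1331 times at 1 week, 88.8 CPM (84.0 to 93.7), and 3872 times at 5 weeks, 138 CPM (134 to 143). The level of the islet phosphatase was thus highest in WT, and the intervals of the 3 libraries did not overlap. All intervals cover counting error only, since each condition is 1 library. On this scale *Spc25* was lowest in WT, with 2224 UMIs and 139 CPM (133 to 145) in WT beta cells, 3191 UMIs and 213 CPM (205 to 220.3) at 1 week, and 9190 UMIs and 328 CPM (322 to 335) at 5 weeks. *Abcb11* was near the limit of detection, with 6, 7 and 45 UMIs in the 3 beta-cell classes from WT to 5 weeks. It stood at 0.374 CPM (0.137 to 0.814) in WT, 0.467 CPM (0.188 to 0.962) at 1 week and 1.61 CPM (1.17 to 2.15) at 5 weeks.

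**Figure D1:**
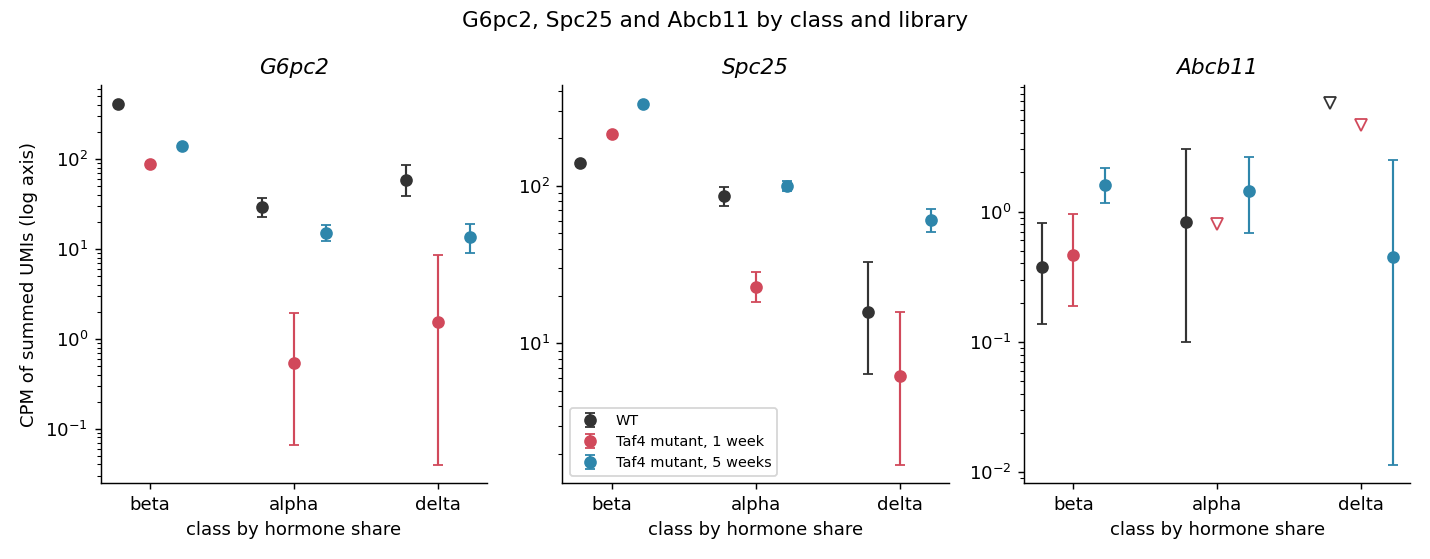
Levels of *G6pc2*, *Spc25* and *Abcb11* in CPM (log axis) in beta, alpha and delta cells of the 3 libraries, with exact 95% counting intervals and open triangles at the level of 3 UMIs where none was counted. In beta cells *G6pc2* was lower in both mutant libraries (88.8 and 138 CPM) than in WT (411 CPM), while *Spc25* was higher (213 and 328 CPM against 139 CPM), though at 1 week it was lower relative to the median gene.

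At 5 weeks over WT the log2 ratio in beta cells was -1.57 (-1.63 to -1.51) for *G6pc2*, 2.97-fold lower, and 1.24 (1.18 to 1.31) for *Spc25*, 2.37-fold higher. Of the 3 members these 2 had at least 100 UMIs over both libraries, and both passed 2-fold. Of 9203 genes with as many UMIs 4.18% were at least 2-fold lower and 6.37% at least 2-fold higher, and since these values chose the members nothing is read from the count. The median of all genes was 0.18. *G6pc2* was higher than 1.88% of genes in this ratio and *Spc25* higher than 97.0%. *Abcb11*, under the minimum, had a log2 ratio of 2.10 with a wide interval (0.87 to 3.62).

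At 1 week over WT the log2 ratio was -2.21 (-2.30 to -2.13) for *G6pc2* and 0.62 (0.54 to 0.70) for *Spc25*. Here 1 member passed 2-fold, *G6pc2*, with 2.47% of 9227 genes at least 2-fold lower and 57.6% at least 2-fold higher. The median of all genes stood at 1.15, or 0.58 with the UMIs of *Ins1*, *Ins2*, *Gcg* and *Sst* left out of the totals, which held 39.4% of beta-cell UMIs at 1 week and 59.3% in WT. The direction for *Spc25* depended on the scaling, with a ratio of 0.044 without hormone UMIs and -0.53 relative to the median gene. For *G6pc2* both scalings gave lower values, -2.79 and -3.36.

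The ratio between the neighbours does not depend on the total. WT beta cells had 0.337 *Spc25* UMIs for each *G6pc2* UMI (0.321 to 0.354). Beta cells at 1 week had 2.40 (2.25 to 2.56) and those at 5 weeks 2.37 (2.29 to 2.46). UMIs of transcript ends are not scaled by gene length, so only the change of this ratio is compared. It was 7.04-fold higher at 5 weeks than in WT, a log2 change of 2.81 (2.73 to 2.90), and 7.11-fold higher at 1 week, a log2 change of 2.83 (2.71 to 2.95). The mutant libraries gave nearly the same ratio, with a log2 difference of -0.01 (-0.12 to 0.09), although the levels of both genes differed between them: 5 weeks over 1 week, *G6pc2* was higher by 0.64 (0.55 to 0.73) and *Spc25* by 0.63 (0.57 to 0.68) on the log2 scale, or by 1.24 and 1.23 without hormone UMIs. With hormone UMIs neither passed 2-fold, 48.7% of 9713 genes were at least 2-fold lower and 1.84% at least 2-fold higher.

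Among islet classes *G6pc2* was highest in beta cells of each library, and so was *Spc25*, with a smaller gap to alpha cells. In WT alpha cells *G6pc2* stood at 29.1 CPM (22.7 to 36.8), 7.08% of its beta-cell level (5.51 to 8.95), where other beta-cell genes stood at 6.73% (*Ins1*), 5.88% (*Slc2a2*) and 8.99% (*Iapp*). The part of free RNA in the alpha-cell counts was not tested. *Spc25* stood at 86.0 CPM (74.7 to 98.6) in the same cells, 62.0% of its beta-cell level (53.5 to 71.6), and at 2.96 UMIs for each *G6pc2* UMI. In WT delta cells *G6pc2* was counted 26 times, 58.9 CPM (38.5 to 86.4), 14.3% of its beta-cell level (9.36 to 21.0). *Spc25* was counted 7 times there, 15.9 CPM (6.38 to 32.7). That was 11.4% of the beta-cell level, beside 9.01% for *Ins1*, 12.6% for *Slc2a2* and 64.3% for *Iapp*. The log2 ratio of beta over alpha cells in WT was 3.82 (3.48 to 4.18) for *G6pc2* and 0.69 (0.48 to 0.90) for *Spc25*, so that 1 member passed 2-fold, with 4.44% of 6843 genes at least 2-fold higher and 20.4% at least 2-fold lower in beta cells. Without hormone UMIs in the totals the value for *Spc25* was 1.30, past 2-fold. Acinar cells of WT, 44 in number, were chosen after the data were seen by acinar markers at 10% or more of UMIs (median 1771 UMIs per cell). They were also limited to under 10% *Ins2*, 8% *Gcg* and 5% *Sst*. *G6pc2* stood there at 33.6 CPM (9.14 to 85.9) and *Spc25* at 25.2 CPM (5.19 to 73.6), from 4 and 3 UMIs. These were 8.17% (2.22 to 20.9) and 18.2% (3.74 to 53.1) of the beta-cell levels. *Abcb11* had 2 UMIs in WT alpha cells and none (0 UMIs) in WT delta cells.

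In the mutant libraries the level of *Spc25* in beta cells stood further above that in alpha cells. At 1 week *Spc25* stood at 22.8 CPM (18.2 to 28.2) in alpha cells, 10.7% of the beta-cell level. Beside it stood 1.47% for *Ins1*, 5.05% for *Iapp* and 3.00% (0.616 to 8.83) for *Slc2a2*, the last from 3 UMIs. At 5 weeks it stood at 100.1 CPM (92.8 to 108) in alpha cells, 30.5% of the beta-cell level. Beside it stood 9.74% for *Ins1*, 15.5% for *Iapp* and 31.3% (9.83 to 76.9) for *Slc2a2*, the last from 5 UMIs. In delta cells *Spc25* stood at 60.5 CPM (50.7 to 71.6), 18.4% of the beta-cell level. There *Ins1* stood at 17.0%, *Iapp* at 65.3% and *Slc2a2*, from 4 UMIs, at 78.3% (20.7 to 210). The interval for *Spc25* in delta cells (15.4 to 21.8) held the share of *Ins1* but not those of *Iapp* and *Slc2a2*. In alpha cells the interval (28.2 to 32.9) held the share of *Slc2a2* but not those of *Ins1* and *Iapp*. Over alpha cells of the same library the log2 ratio in beta cells at 1 week was 7.37 for *G6pc2* and 3.22 for *Spc25*, both past 2-fold, where 7.82% of 8822 genes were higher and 8.03% lower. At 5 weeks it was 3.19 and 1.71, both past 2-fold, where 2.67% of 9067 genes were higher and 18.9% lower. Alpha cells at 5 weeks over WT had a log2 ratio of 0.22 (-0.01 to 0.45) for *Spc25* and -0.94 (-1.39 to -0.48) for *G6pc2*. Neither passed 2-fold, and 1.23% of 5932 genes were at least 2-fold lower and 3.20% higher. Alpha cells at 1 week over WT had a log2 ratio of -1.91 (-2.30 to -1.54) for *Spc25*, from 85 against 207 UMIs, with 4.83% of 5304 genes at least 2-fold lower and 32.1% higher. *G6pc2* had 2 UMIs in alpha cells (0.537 CPM) and 1 in delta cells of the 1-week library, where *Abcb11* had 0 in both and *Spc25* 4 in delta cells, 6.20 CPM (1.69 to 15.9). At 5 weeks *G6pc2* stood at 15.2 CPM (12.4 to 18.4) in alpha cells, 10.96% of its beta-cell level, and at 13.4 CPM (9.07 to 19.2) in delta cells, 9.71%. In delta cells at 5 weeks over WT *Spc25* had a ratio of 1.93 (0.85 to 3.27), from 135 against 7 UMIs, with 3.73% of 2895 genes at least 2-fold higher and 1.62% lower. Of the 135 UMIs, 60 lay in the 244 cells within 2 percentage points above the *Sst* limit. The 10 beta-cell markers summed to 70041 CPM for WT delta cells and to 43774 CPM for 5-week delta cells. Most of this came from *Iapp*, with 24503 of 441057 UMIs (WT) and 87686 of 2232744 UMIs (5 weeks). *Ins1* held 13830 CPM (WT) and 3808 CPM (5 weeks) of it. *Iapp* in delta cells stood at 64.3% (WT) and 65.3% (5 weeks) of its beta-cell level, so the sum is not particular to beta-cell RNA. That sum was also lower in the mutant among beta cells, with 83620 CPM (5 weeks) against 241666 CPM (WT). *Ins2*, not part of the sum, went the other way in delta cells, with 106098 CPM (5 weeks) against 42954 CPM (WT). Cells that met both the beta and the delta limits numbered 128 (5 weeks) and 2 (WT). The study had removed cells with more than 1 hormone from the WT library only, so these counts cannot be compared. The part of beta-cell RNA in the *Spc25* values of delta cells was not tested.

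Values near the limits of the classes are given here with no test. In WT the 47 cells within 5 percentage points above the *Ins2* limit held 285 CPM of *G6pc2* (163 to 462), and the 27 cells as far below it held 284 CPM (136 to 521). At 5 weeks *Spc25* stood at 115 CPM (67.9 to 181) in the 89 cells just above that limit and at 105 CPM (55.6 to 179) in the 84 cells just below it. At 1 week the 30 cells within 2 points above the limit held 126 CPM of *Spc25* (95.7 to 162) and the 27 below it 220.1 CPM (177 to 271). The alpha and delta limits at 5 weeks had more cells beside them. *Spc25* stood at 156 CPM (128 to 188) in the 247 cells within 5 points above the *Gcg* limit and at 189 CPM (159 to 223) in the 231 cells as far below it. It stood at 96.8 CPM (73.9 to 125) in the 244 cells within 2 points above the *Sst* limit and at 167 CPM (141 to 195) in the 300 cells as far below it.

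Most beta cells of the mutants held an *Spc25* transcript. Of WT beta cells, 22.3% had a UMI of *Spc25* (exact Clopper-Pearson 95% interval 21.4 to 23.2). At 1 week 84.9% did (81.6 to 87.7), and at 5 weeks 67.5% (66.2 to 68.7). These shares follow depth, so each cell was also thinned to 1000 UMIs, which left out 502 WT beta cells, 0 at 1 week and 207 at 5 weeks. For *Spc25* the thinned share was 12.6% of WT beta cells (11.9 to 13.4), 17.3% of those at 1 week (14.3 to 20.7) and 27.0% of those at 5 weeks (25.9 to 28.2). For *G6pc2*, found with all UMIs in 49.8%, 45.0% and 37.8%, the thinned shares were 32.3% (31.2 to 33.3), 6.54% (4.64 to 8.91) and 10.6% (9.83 to 11.5). Alpha cells (median 765, 21709 and 1896.5 UMIs) were thinned in the same way. This left out 2176 alpha cells in WT, 0 at 1 week and 314 at 5 weeks, so that the WT shares describe only 639 deeper cells. In the alpha cells kept, the share with *Spc25* was 8.62% (6.56 to 11.1), 2.05% (0.508 to 5.41) and 8.77% (7.79 to 9.84) from WT to 5 weeks. That with *G6pc2* was 2.37%, 0.0458% and 1.37%. In the 32 acinar cells of WT with enough UMIs the thinned shares were 2.41% (0.0238 to 15.1) for *G6pc2* and 4.03% (0.208 to 17.6) for *Spc25*. Endothelial cells at 5 weeks, 175 with a median of 1264 UMIs, were also chosen after the data were seen. They held endothelial markers at 1% or more of UMIs and at least 5 such UMIs. In the 119 of them with enough UMIs the thinned shares were 2.29% (0.424 to 6.85) and 2.98% (0.736 to 7.85). At 5 weeks the shares of both genes in beta cells lay above the intervals of the endothelial cells. For *G6pc2* the interval of the acinar cells of WT held the 5-week beta-cell share. Acinar and endothelial cells were taken only with under 10% *Ins2*, 8% *Gcg* and 5% *Sst*, so cells rich in hormone RNA were left out in advance. Whether their counts measure background was not tested. For *Spc25* in WT beta cells and in alpha cells the thinned intervals overlapped those of these few cells, while the CPM intervals did not, with 133 to 145 in WT beta cells and 74.7 to 98.6 in WT alpha cells against 5.19 to 73.6 in acinar cells. In 5-week alpha cells the CPM interval was 92.8 to 108 against 11.9 to 60.9 in all 175 endothelial cells.

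Whether both transcripts occurred in the same cells was read at equal depth, since deeper cells show more of any gene. In WT, 1079 beta cells held both, and *Spc25* was found in 26.2% of beta cells with *G6pc2* and in 18.5% of those without. After thinning to 1000 UMIs the shares were 13.3% (12.0 to 14.6) and 12.3% (11.4 to 13.2), a difference of 0.963 percentage points (-0.603 to 2.59). At 5 weeks the difference was 24.1 points with all UMIs and 3.48 points (-0.323 to 7.51) after thinning, with 30.1% against 26.7%. At 1 week it was 18.9 points with all UMIs and 8.88 points (-2.94 to 25.1) after thinning. Thinned to 2000 UMIs it was 4.78 points (1.27 to 8.27) at 5 weeks and 12.4 points (0.623 to 25.1) at 1 week, with 1.15 points (-1.95 to 4.20) in WT. That depth kept only 3058 of 8271 beta cells in WT, but all 562 at 1 week and 4836 of 5685 at 5 weeks. A difference at equal depth was thus not detectable in WT, and in the mutant libraries its interval left 0 at 2000 but not at 1000 UMIs.

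**Figure D2:**
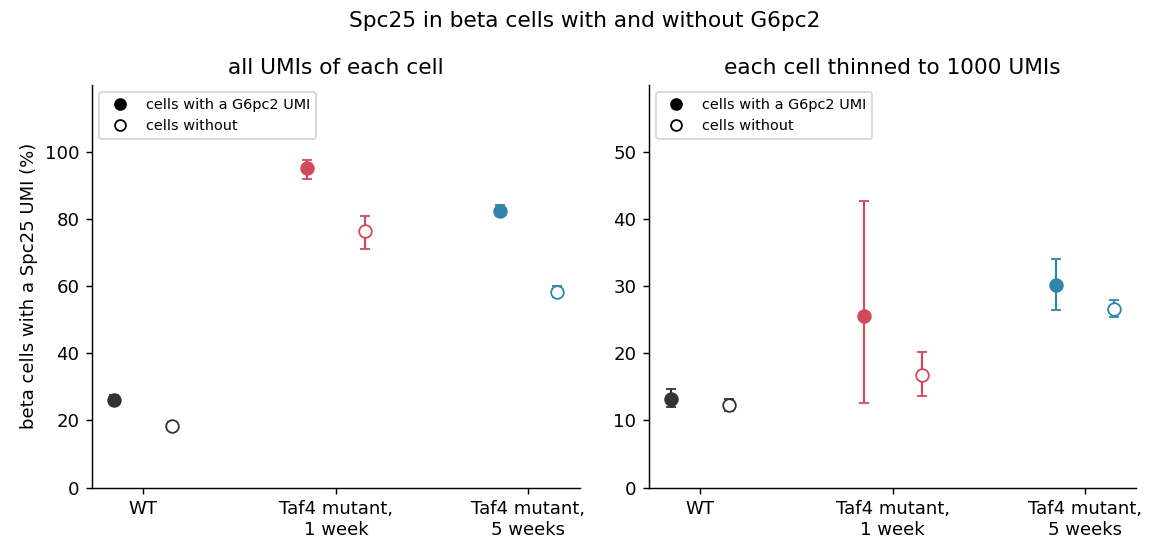
Share of beta cells with an *Spc25* UMI (in percent) among cells with a *G6pc2* UMI (filled) and without (open) in each library, with all UMIs (left) and after each cell was thinned to 1000 UMIs (right). Bars are Clopper-Pearson 95% intervals, on the right from mean counts over draws and so approximate. In WT the shares were 26.2% and 18.5% with all UMIs, and 13.3% and 12.3% after thinning.

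*G6pc2* varied among mutant beta cells along with the share of insulin transcripts that came from *Ins1*, and *Spc25* stayed within a narrower range over that share. Beta cells were ranked within each library by *Ins1* as a share of *Ins1* and *Ins2* UMIs and cut into 4 bins of equal cell number. At 1 week that share was 0.749% in the lowest bin and 11.8% in the highest, and *G6pc2* stood at 31.3 CPM (25.4 to 38.2) in the lowest and 153.5 CPM (143 to 165) in the highest, a log2 difference of 2.29 (1.99 to 2.62). *Spc25* stood at 212 and 190 CPM in the same bins, a log2 difference of -0.16 (-0.30 to -0.01), so that *Spc25* UMIs per *G6pc2* UMI went from 6.76 to 1.24. At 5 weeks the *Ins1* share was 1.42% in the lowest bin and 6.20% in the highest. *G6pc2* stood there at 80.2 CPM (72.1 to 89.0) and 155 CPM (146 to 164), a log2 difference of 0.95 (0.78 to 1.12). *Spc25* stood at 318 and 333 CPM, a difference of 0.07 (-0.03 to 0.16). In WT the *Ins1* share ran only from 21.2% to 30.4%, a narrower relative range than in the mutants. No WT bin had a share as low as those of the mutants. In these WT bins *G6pc2* stood at 395 and 409 CPM, a difference of 0.05 (-0.05 to 0.16). *Spc25* stood at 159 and 117 CPM, a difference of -0.45 (-0.63 to -0.26). Among the deeper and the shallower cells taken apart, the difference of *G6pc2* between the upper and lower cells by *Ins1* share was 1.60 and 1.39 at 1 week, but 0.12 and 0.68 at 5 weeks, where the lowest bin also had the fewest UMIs per cell. With UMIs per cell in place of the *Ins1* share, the log2 difference of the highest over the lowest bin was 1.23 at 1 week and 1.03 at 5 weeks for *G6pc2*, and 0.19 and 0.16 for *Spc25*. With the mitochondrial share of UMIs it was 1.78 and -0.60 for *G6pc2*. For *Spc25* it was 0.79 (0.64 to 0.93) at 1 week, from 193 to 332 CPM, and -0.08 at 5 weeks. The parts of depth and mitochondrial share in these values were not tested. *Ddit3*, a gene of the endoplasmic reticulum stress response named here after its values were seen, stood at 3528 CPM in the lowest bin at 1 week and at 488 CPM in the highest, and its part in the *G6pc2* values was not tested.

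**Figure D3:**
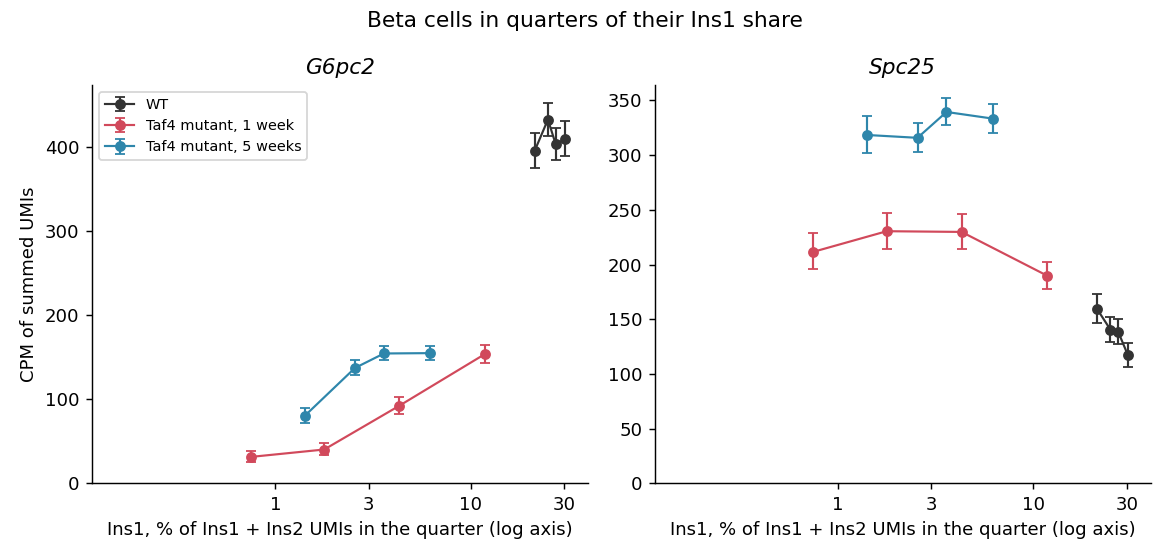
*G6pc2* (left) and *Spc25* (right) in CPM in 4 equal bins of the beta cells of each library, against the bin's *Ins1* share of *Ins1* and *Ins2* UMIs (log axis), with exact 95% counting intervals. *G6pc2* ran from 31.3 to 153.5 CPM over the bins at 1 week, where *Spc25* stayed between 190 and 230.5 CPM.

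Profiles were compared over the 9 sums of 3 libraries and 3 classes. By Pearson correlation of log2(CPM + 1), the gene most like *G6pc2* among 11013 genes was *Ins1* (0.985), followed by *Pde5a* (0.946), *Rgs11* (0.940), *Prlr* (0.936) and *Sytl4* (0.928). Most like *Spc25* were *Crybg3* (0.963), *Dlgap1* (0.952), *Kcnh1* (0.946), *Rimkla* (0.942) and *Atp6v1g2* (0.922). The value between both neighbours was 0.711. The 9 sums share libraries and cells, so these are descriptions.

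The partners of *Spc25* in the NDC80 complex were counted far less often. In WT beta cells, against 2224 UMIs of *Spc25*, *Spc24* was counted 29 times, *Ndc80* 1 time and *Nuf2* 0 times, where a count of 0 allows up to 3. At 5 weeks *Spc24* was counted 65 times, *Ndc80* 1 time and *Nuf2* 0 times against 9190 UMIs of *Spc25*, and at 1 week 40, 3 and 1 times against 3191. These are levels per UMI without scaling for gene length, and the partner genes together reached 1.87, 2.93 and 2.36 CPM in WT, 1-week and 5-week beta cells. The 18 proliferation genes listed summed to 4.11 CPM in WT beta cells (3.18 to 5.23), 2.73 CPM at 1 week (1.96 to 3.71, with 14 of them in the table) and 4.61 CPM at 5 weeks (3.85 to 5.48). Those with most UMIs in WT were *Ube2c* and *Prc1* (8 each), *Cdk1* and *Rrm2* (6 each), all genes of the cell cycle. In alpha cells these genes summed to 4.99 CPM in WT and 25.2 CPM at 5 weeks.

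Cells with *Spc25* held no detectable excess of proliferation transcripts. In WT beta cells the proliferation genes stood at 5.65 CPM (3.62 to 8.40) in cells with an *Spc25* UMI and 3.56 CPM (2.57 to 4.81) in cells without. The values were 2.53 CPM (1.76 to 3.52) and 5.14 CPM (1.88 to 11.2) at 1 week, and 4.91 CPM (4.03 to 5.91) and 3.42 CPM (2.06 to 5.34) at 5 weeks, with overlapping intervals in each library. Beta cells with *Spc25* were deeper, with medians of 2137 against 1581 UMIs in WT and 4860.5 against 2639 at 5 weeks. Of 12 replication genes 3 had enough UMIs to compare at 5 weeks over WT in beta cells and 1 passed 2-fold, *Pcna*, the sliding clamp of DNA polymerases, with 84 UMIs in WT and 306 at 5 weeks and a log2 ratio of 1.06. Their median ratio was 0.44 beside 0.18 for all genes, of which 6.37% were at least 2-fold higher. Of 13 other kinetochore genes 2 were compared and 1 passed 2-fold, *Mis12* with a ratio of 1.06 (beside the same 6.37%), while *Zwint*, the most abundant, had 0.29. No kinetochore, proliferation or replication gene reached the *Spc25* level in beta cells of any library.

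**Figure D4:**
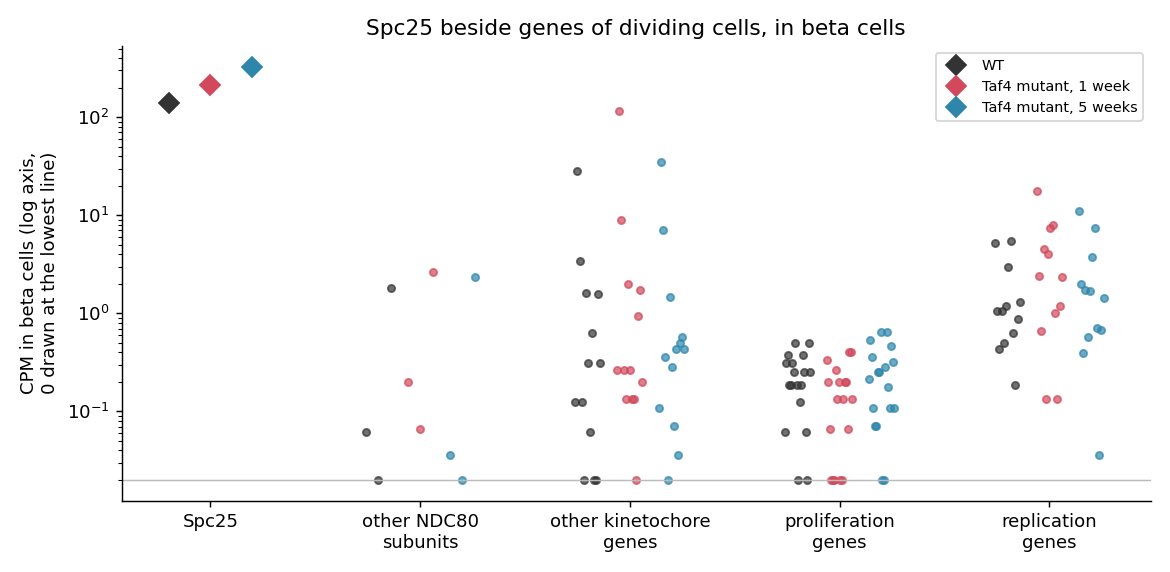
Levels in beta cells, in CPM without scaling for gene length (log axis), of *Spc25* (diamonds) and of each gene (points) of the other NDC80 subunits, other kinetochore genes, proliferation genes and replication genes, by library, with genes at 0 on the lowest line. *Spc25* stood at 139, 213 and 328 CPM, and the highest of the other genes, *Zwint*, at 28.3, 115 and 34.7 CPM in WT, at 1 week and at 5 weeks.

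Genes around the locus were set beside the members in beta cells at 5 weeks over WT. Within 500 kb of *G6pc2* on either side the annotation held 19 genes, 12 of them protein coding, and 9 genes were in the tables. Of these 7 were compared, 1 was lower (*G6pc2*) and 1 higher (*Spc25*), beside 4.18% and 6.37% of all genes. Both are members chosen from these values, so nothing is read from the count. *Nostrin*, which ends 4564 bases from the end of *Spc25*, had 52 UMIs in WT beta cells and 115 at 5 weeks, a log2 ratio of 0.34 (-0.14 to 0.84), and its level was higher in alpha (37.4 CPM) and delta cells (54.4 CPM) than in beta cells (3.24 CPM) of WT. *Cers6* had a ratio of 0.07 (-0.20 to 0.34), *Bbs5* of 0.61 (0.06 to 1.19), *Fastkd1* of 0.35 (-0.23 to 0.95) and *Ppig* of 0.35 (0.23 to 0.47). At 1 week *Ppig* had 1.43 and *Cers6* -0.35, where the median of all genes was 1.15.

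**Figure D5:**
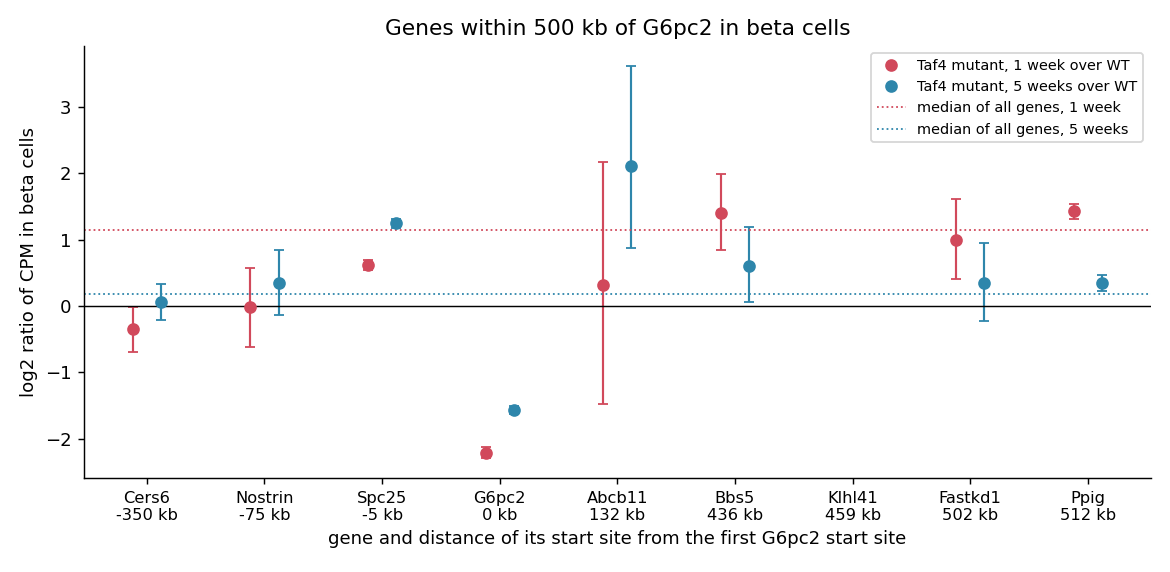
Log2 ratio of CPM in beta cells at 1 week and 5 weeks over WT for genes within 500 kb of *G6pc2*, ordered by the distance of their start from the first *G6pc2* start, with exact 95% counting intervals and the medians of all genes as dotted lines. *G6pc2* stood at -1.57 and *Spc25* at 1.24 at 5 weeks. *Klhl41*, with 3 UMIs in all, is listed without a point.

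Other genes of the glucose and glucose-6-phosphate cycle were set beside *G6pc2*. Of 11 listed, 4 were compared at 5 weeks over WT in beta cells, 1 was at least 2-fold lower and none higher, beside 4.18% and 6.37% of all genes. The lower gene was *Slc2a2*, the glucose transporter of beta cells, which stood at 198 CPM in WT, at 26.9 CPM at 1 week and at 2.29 CPM at 5 weeks. Its log2 ratio over WT was -2.88 and -6.43. *Slc2a2* was thus lower at 5 weeks than at 1 week, while *G6pc2* was higher. *G6pc3*, the catalytic subunit found in most tissues, stood at 12.7, 27.0 and 13.1 CPM from WT to 5 weeks, and *Slc37a4*, the transporter that brings glucose-6-phosphate to the phosphatase, at 14.0, 19.1 and 11.9 CPM. Of 19 glycolysis genes 15 were compared at 5 weeks and none passed 2-fold, with a median ratio of 0.36. At 1 week 14 of the 15 were at least 2-fold higher, beside 57.6% of all genes, with a median of 1.57 beside 1.15 for all genes. Of 15 islet transcription factor genes 14 were compared at 5 weeks, with a median of -0.02. Named after their values were seen, *Mlxipl*, a factor that responds to glucose, was at least 2-fold lower (-1.34, -1.50 to -1.18) and *Pdx1*, a factor of beta-cell identity, at least 2-fold higher (1.21, 1.07 to 1.34). *Mafa*, a factor of mature beta cells, had a ratio of 0.69.

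Of 12 bile acid and related transport genes beside *Abcb11*, 2 were compared at 5 weeks over WT in beta cells, *Abcb1b* (-0.92) and *Abcc4* (-0.05), and neither passed 2-fold. *Nr1h4*, the bile acid receptor that drives *Abcb11* in liver, was counted 51 times in WT beta cells, 77 times at 1 week and 47 times at 5 weeks. *Abcb11* UMIs lay in 45 different beta cells at 5 weeks, 1 in each, and in 10 alpha cells and 1 delta cell, so that its level in alpha cells, 1.43 CPM (0.686 to 2.63), was 89.0% of that in beta cells (40.0 to 179).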

How the data were processed

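Single-cell libraries of mouse islets were made with a droplet kit that tags transcript ends (10X Chromium 3′). The authors counted UMIs per gene and cell with Cell Ranger 3.1 on mm10, per the labels, and deposited the raw count of each gene in each cell as 1 table per library, without normalization. Whether counting used strand is not given in the sources used here. The WT table had been filtered for cells with several hormones and doublets and reduced in size, and no doublet caller was run here. Library totals were 19472212 (WT), 23131247 (1 week) and 39408284 (5 weeks) UMIs.

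Counts were summed per library and class and divided by the class total (CPM). With 1 library per condition no test was run. Exact 95% intervals (Poisson for counts, conditional binomial for ratios, Clopper-Pearson for shares) cover counting error only, and a count of 0 allows up to 3. Differences between shares have Newcombe intervals, built from Wilson score intervals and approximate. After thinning, intervals of shares and differences were computed from mean counts over draws and are approximate too. Genes with at least 100 UMIs over both sums were compared, called at 2-fold. Thinned shares are the mean over all possible draws of 1000 UMIs per cell, computed exactly. The members, gene lists and class limits were chosen with earlier results of these data known. Genes named are the members, genes within 500 kb, genes of the NDC80, glucose cycle and bile transport lists, at most the 4 genes with most UMIs in WT beta cells of each other list, and for each of *G6pc2* and *Spc25* the 5 genes with the most similar profile, apart from those said to be named after their values were seen. A gene of the glucose cycle list is not reported here. Tested on simulated data for 5 weeks over WT in beta cells, the intervals held the true ratio for 96.5% of 200 changed genes among 6082. The simulated counts were Poisson draws, the model that the intervals assume. The simulation thus checks the calculation only and says nothing of variation between cells, animals or libraries. Promoters and coordinates are from RefSeq GRCm38.p6. Python 3.11.15 with numpy 2.4.6, scipy 1.17.1, pandas 2.3.3 and matplotlib 3.10.9 was used.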

Additional observations from a re-analysis of the deposited data

Results flagged for a closer look

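The 1-week over WT ratio of *Spc25* had opposite signs in the 2 cell classes that hold most of its UMIs. The log2 ratio was 0.62 in beta cells and -1.91 in alpha cells. The single library of each condition gave these directions, so the difference was not tested. The median of all genes stood at 1.15 in beta cells and 0.63 in alpha cells. In beta cells the ratio was 0.044 without hormone UMIs. Relative to the median gene it was -0.53 in beta cells and -2.55 in alpha cells, so that the signs were no longer opposite.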

How the results depend on the processing

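No paired analysis was possible because each condition had 1 library. For 8 results 62 alternative values were computed. Of these 37 stayed within the counting interval, 23 moved outside it and 2 turned the direction. *G6pc2* at 5 weeks over WT in beta cells was -1.70 by the mean of each cell's CPM, -1.77 with cells thinned to 1000 UMIs, -1.78 in cells of 200 to 1500 detected genes and under 15% mitochondrial UMIs, -1.69 without the deepest 5% of cells and -1.75 relative to the median gene, an alternative added after seeing the data. *G6pc2* at 1 week over WT was -2.79 without hormone UMIs, -2.40 by the mean CPM, -2.42 thinned, -2.12 with stricter class limits, -2.63 without the deepest cells, -2.0 with the class limits of the other libraries and -3.36 relative to the median gene. *Spc25* at 5 weeks was 1.07 relative to the median gene. *Spc25* at 1 week was 0.044 without hormone UMIs, -0.53 relative to the median gene and -1.42 in the filtered cells. The filter left 17 of the 562 beta cells at 1 week, with 8 *Spc25* UMIs and 0 *G6pc2* UMIs, so that no *G6pc2* ratio could be given. Its limits are those stated in the study's methods, so most beta cells used here at 1 week lay outside them. The study nonetheless reported 2295 cells at 1 week, as many as the barcodes here. The change of *Spc25* per *G6pc2* UMI at 5 weeks was 2.94 by the mean CPM, 3.00 thinned, 3.05 in the filtered cells and 2.94 without the deepest cells. Beta over alpha cells in WT was 4.43 without hormone UMIs and 4.36 relative to the median gene for *G6pc2*, and 1.30 and 1.23 for *Spc25*. The difference in *Spc25* detection between WT beta cells with and without *G6pc2* was 7.73 percentage points without thinning. The cause of these shifts was not tested. Leaving out a replicate could not be done with 1 library per condition, and genes under 100 UMIs, *Abcb11* among them, are limited by depth.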
